A study of Danio rerio with 11 samples.

Results

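Leukocyte marker genes were followed in RNA-seq libraries of hand-picked zebrafish oocytes from znf706 mutant and WT females. The set held 7 of the 31952 gene IDs kept from the deposited expression table: cd74a, cd74b, zap70, cd4-1, coro1a, rac2 and arhgdig. These genes were taken as low-level immune cell markers with higher values in mutants. Their mutant and WT levels in all 8 libraries therefore chose them, and those levels and the differences between the genotypes are given as a description with no test. Comparisons of stage II with stage I within a genotype were tested, although the same libraries entered the choice.

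There were 4 groups of 2 libraries each: mutant stage II, WT stage II, mutant stage I and WT stage I oocytes. Mutants carried the tsu7d allele of znf706, and their genotype was labelled MZznf706, while WT fish carried no labelled allele. All donors were juvenile females of 3 months, and all ovaries were taken apart in a dissociation buffer before the oocytes were collected with a pipette. A library held the polyadenylated RNA of about 150 stage II or about 600 stage I oocytes, so each value is a mean over a pool. No further sort or gate was described that would remove other ovarian cells. The replicates of a group are called biological in the series text, and p-values measure only the spread between them. The 3 CUT&Tag libraries of the series were not analysed here.

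Leukocytes carry out immune defence and tissue clearance, and resident macrophages are known from the zebrafish ovary. Antigen-presenting cells load peptides onto MHC class II molecules with the help of the invariant chain CD74, and helper T cells read these complexes through the T cell receptor, with CD4 as coreceptor and ZAP70 as the kinase that passes the signal on. Coronin-1A and Rac2 act on the actin skeleton of blood cells, and RhoGDI proteins hold GTPases such as Rac2 in an inactive form in the cytosol.

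Values are FPKM, which scale the fragments of a gene by its length and by the total of its library. Their sum lay between 653659 and 899582 per library, and 11992 to 12691 genes reached 1 FPKM. Relative depth, read from low values, was 0.889 to 1.04 of that of WT stage I replicate 1 for the other 7 libraries, but the number of reads is unknown. How many fragments stand behind 1 FPKM is therefore unknown as well, and no counting interval is given. The targeted gene znf706 was listed at 129 and 142 FPKM in mutant stage II libraries, against 158 and 143 FPKM in WT stage II libraries. It had 181 and 147 FPKM in mutant stage I libraries, against 232 and 238 FPKM in WT stage I libraries. The sources used here do not say which stretch of the transcript the allele alters, so these levels do not check the labels.

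The label of the set was first compared with markers that define leukocytes. None of ptprc (CD45, carried by all leukocytes), lcp1 (L-plastin), mpx (neutrophil myeloperoxidase), mpeg1.1 (a macrophage perforin), lck (a T cell kinase) and cd79a (a B cell receptor chain) reached 1 FPKM in any library. The gene mpeg1.1 was at 0 in all 8 libraries, mpx was at 0 in mutant stage II replicate 1, and cd79a was at 0 in 4 libraries, 3 of them WT. The kinase gene lck reached the highest value of the 6, with 0.910 and 0.591 FPKM in mutant stage II libraries, against 0.283 and 0.117 FPKM in WT stage II libraries. Its stage I values were 0.833 and 0.258 FPKM in mutant libraries, against 0.146 and 0.220 FPKM in WT libraries. Summed over the 6 markers, the level was 1.54 and 1.61 FPKM in mutant stage II libraries, against 0.505 and 0.262 FPKM in WT stage II libraries. At stage I the sum was 1.65 and 0.750 FPKM in mutant libraries, against 0.379 and 0.681 FPKM in WT libraries. The sums were thus higher in mutant than in WT libraries without overlap at both stages, but at stage I the nearest libraries were at 0.750 and 0.681 FPKM. Every defining marker stayed under the filter for testing, so nothing is read from these sums. In bulk samples such as these, a larger number of cells of a type and more RNA per cell cannot be told apart.

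The 7 genes did not share one level either. The genes cd74a, cd74b, zap70, cd4-1 and coro1a averaged at most 5.36 FPKM in any group, which placed them above 1.64% to 39.6% of the 13862 tested genes. The other 2, rac2 and arhgdig, were well above the defining markers: group means of rac2 lay above 65.1% to 70.2% of tested genes, and those of arhgdig above 59.5% to 92.8%. Moreover rac2 was not higher in mutants at stage I in the deposited values, and its direction there depended on the scaling. The name leukocyte marker genes is used below for the 7 genes as chosen. It does not say which cells held their transcripts.

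**Figure D1:**
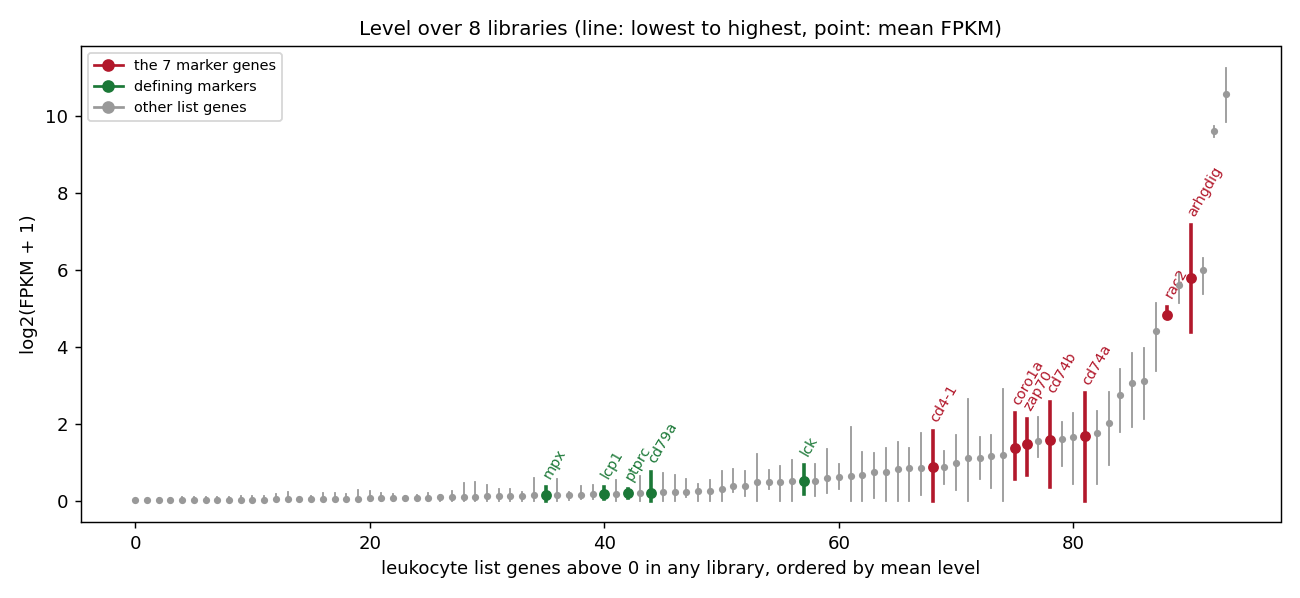
Level of each of the leukocyte list genes above 0 in at least 1 library, on a log2(FPKM + 1) axis, ordered from low to high mean level; a point is the mean over 8 libraries and a line runs from the lowest to the highest library. The defining markers (green) lie at the low end, 5 of the 7 marker genes (red) lie in the middle, and rac2 and arhgdig lie among the most abundant genes of the lists.

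All 7 genes passed the filter for testing, a value of 1 FPKM or more in 2 or more libraries. Mutant libraries alone carried coro1a and cd4-1 past it, with 4 and 3 libraries at 1 FPKM or more. WT libraries reached 1 FPKM in 1 case for cd74a, in 2 cases each for cd74b and zap70, and in all 4 for rac2 and arhgdig.

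Antigen presentation was represented by cd74a (ENSDARG00000009087) and cd74b (ENSDARG00000036628), both zebrafish genes for the invariant chain. At stage II, cd74a had 1.53 and 3.03 FPKM in mutant libraries, against 0 and 0.720 FPKM in WT libraries. In stage I libraries its values were 5.95 and 4.77 FPKM in mutants, against 0.861 and 1.00 FPKM in WT. The 4 groups did not overlap, and their order was mutant stage I, mutant stage II, WT stage I and WT stage II. On the log2(FPKM + 1) scale, on which a difference of low levels is understated, the mutant minus WT difference of cd74a was 1.28 ± 0.30 (SE) at stage II and 1.72 ± 0.30 at stage I.

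The copy cd74b ran close to cd74a. It had 1.50 and 2.57 FPKM in mutant stage II libraries, against 0.276 and 0.854 FPKM in WT stage II libraries. In stage I libraries it had 4.92 and 3.65 FPKM in mutants, against 1.09 and 1.1 FPKM in WT. The groups stood in the same order as for cd74a, again without overlap, and the log2 differences between mutant and WT were 0.96 ± 0.25 at stage II and 1.32 ± 0.25 at stage I. The ratio of cd74a to cd74b was 1.02 and 1.18 in mutant stage II libraries, against 0 and 0.843 in WT stage II libraries, and 1.21 and 1.31 in mutant stage I libraries, against 0.789 and 0.908 in WT stage I libraries. Thus cd74a was the more abundant copy in every mutant library and cd74b in every WT library. How reads shared by such copies were assigned is not given in the sources used here, so the split between the 2 is uncertain.

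T cell receptor signalling was represented by zap70 (ENSDARG00000015752) and cd4-1 (ENSDARG00000070668). The kinase gene zap70 had 2.26 and 1.73 FPKM in mutant stage II libraries, against 0.595 and 0.881 FPKM in WT stage II libraries. Stage I values were 3.09 and 3.35 FPKM in mutants, against 1.08 and 1.26 FPKM in WT. Its 4 groups did not overlap and followed the same order as the cd74 genes. The log2 difference between mutant and WT was 0.79 ± 0.16 at stage II and 0.96 ± 0.16 at stage I, the most even of the genes whose mutant libraries exceeded WT at both stages.

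The coreceptor gene cd4-1, which zebrafish helper T cells and some of their macrophages express, had the lowest WT levels of the set. It had 1.93 and 2.53 FPKM in mutant stage II libraries, against 0 and 0.199 FPKM in WT stage II libraries. It had 0.652 and 1.04 FPKM in mutant stage I libraries, against 0.0757 and 0.193 FPKM in WT stage I libraries. Mutant stage II was highest and mutant stage I next, while the WT libraries of both stages overlapped. The log2 difference between mutant and WT was 1.55 ± 0.18 at stage II and 0.70 ± 0.18 at stage I, so cd4-1 was in the reverse stage order to zap70. The other CD4-type gene measured, cd4-2.2, stayed between 0 and 0.549 FPKM in all libraries and did not pass the filter.

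Of the cytoskeletal genes, coro1a (ENSDARG00000054610), the coronin of leukocytes, had 3.22 and 3.84 FPKM in mutant stage II libraries, against 0.472 and 0.480 FPKM in WT stage II libraries. At stage I it had 1.33 and 1.94 FPKM in mutants, against 0.882 and 0.617 FPKM in WT. The groups did not overlap. Their order was mutant stage II, mutant stage I, WT stage I and WT stage II, and the log2 difference between mutant and WT was 1.61 ± 0.17 at stage II and 0.59 ± 0.17 at stage I.

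The GTPase gene rac2 (ENSDARG00000038010) hardly varied. It had 28.0 and 32.0 FPKM in mutant stage II libraries, against 26.7 and 26.5 FPKM in WT stage II libraries, and 26.0 and 26.4 FPKM in mutant stage I libraries, against 26.8 and 26.7 FPKM in WT stage I libraries. The mutant stage II libraries lay above the other 6, and these 2 also differed most from each other. The stage I libraries of the mutant were the lowest, and WT libraries of both stages overlapped. The log2 difference between mutant and WT was 0.16 ± 0.09 at stage II and -0.03 ± 0.09 at stage I, where scaling the libraries to a common distribution or by median ratios turned the sign to 0.07 and 0.05. No direction is therefore given for rac2 at stage I.

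For the RhoGDI gene arhgdig (ENSDARG00000004034), RefSeq also lists the name ARHGDIB, the RhoGDI of mammalian blood cells. The gene arhgdig was the most abundant of the set in every group but WT stage II, where rac2 was higher. It had 35.5 and 33.8 FPKM in mutant stage II libraries, against 20.2 and 19.9 FPKM in WT stage II libraries. The stage I values were 143 and 121 FPKM in mutants, against 32.2 and 27.6 FPKM in WT. The mutant stage I libraries lay far above all others, and the 4 groups did not overlap. The log2 difference between mutant and WT was 0.76 ± 0.11 at stage II and 2.1 ± 0.11 at stage I. The ratio of arhgdig to rac2 was 1.27 and 1.06 in mutant stage II libraries, against 0.756 and 0.752 in WT stage II libraries. It was 5.48 and 4.58 in mutant stage I libraries, against 1.2 and 1.03 in WT stage I libraries.

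**Figure D2:**
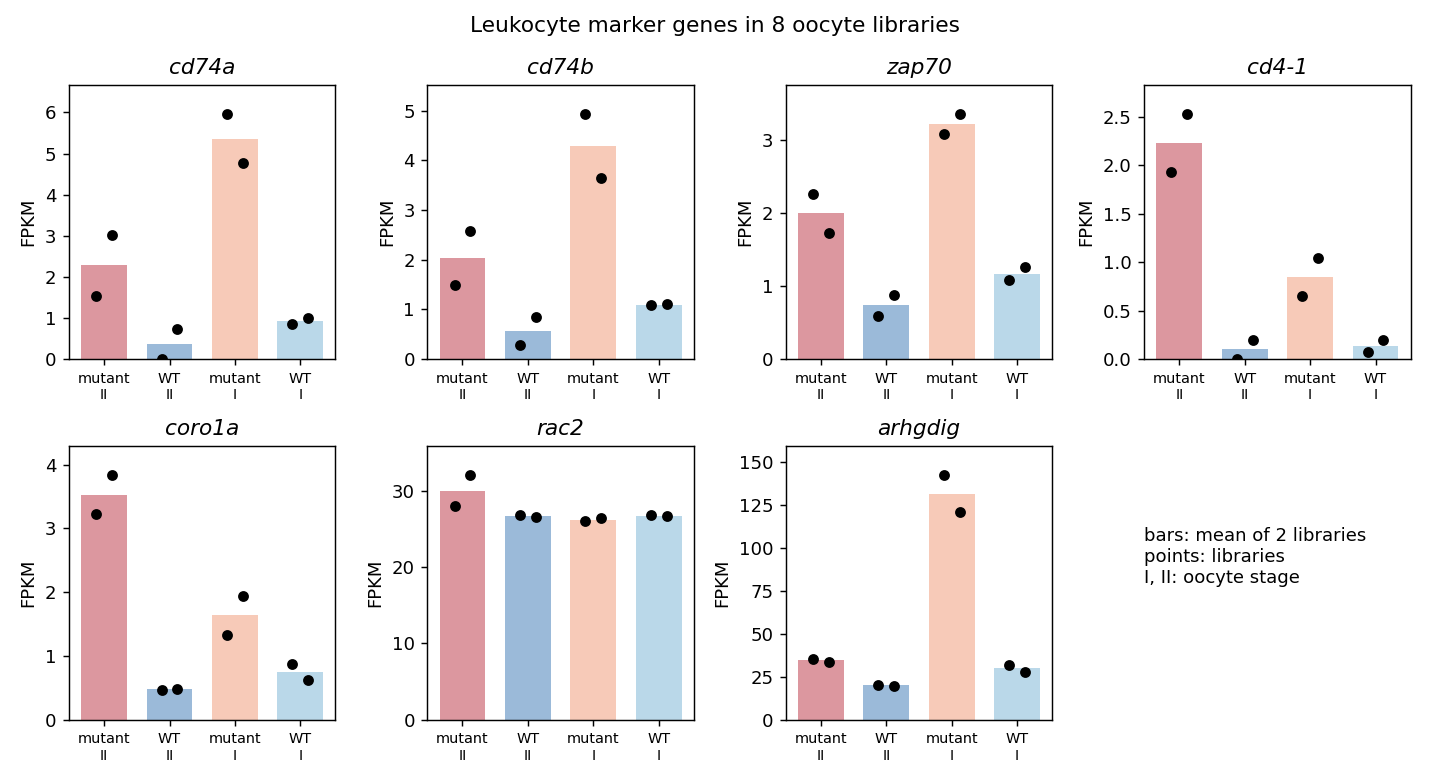
FPKM of each of the 7 genes by group; bars are the means of 2 libraries, points are the libraries, and each panel has its own axis from 0. The highest group is mutant stage I for cd74a, cd74b, zap70 and arhgdig and mutant stage II for cd4-1 and coro1a, while rac2 lies between 26.0 and 32.0 FPKM throughout.

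In all, the lowest mutant library exceeded the highest WT library for 7 of 7 genes at stage II, where 25.4% of all tested genes were called higher in mutants by limma. The same held at stage I for 6 of 7 genes, rac2 being the exception, where 18.4% of all tested genes were called higher. A limma call is another measure than a lack of overlap, and the share of all tested genes without overlap was not computed. Since the genes were also chosen by these differences, nothing is read from the counts.

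Within the mutant, the genes took both directions between the stages. In limma, with p-values adjusted over all tested genes, arhgdig was lower at stage II than at stage I by a log2 difference of -1.89 ± 0.11 (adjusted p = 9.1e-06). The same held for cd74a at -0.99 ± 0.30 (limma adjusted p = 0.02), for cd74b at -0.81 ± 0.25 (adjusted p = 0.02) and for zap70 at -0.50 ± 0.16 (adjusted p = 0.028). By contrast coro1a was higher at stage II by 0.79 ± 0.17 (limma adjusted p = 0.0045). For cd4-1 the difference was 0.81 ± 0.18, but it passed the filter only through the mutant stage II libraries where it was high, with 1 library at 1 FPKM or more outside them. Without any filter its limma adjusted p was 0.011. For rac2 the value was 0.19 ± 0.09 and the call was missed (limma adjusted p = 0.097). Leaving cd4-1 aside for that reason, 4 genes fell and 1 rose, against a background in which 18.7% of all tested genes were called lower and 47.3% higher at stage II in mutants.

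The calls for arhgdig and coro1a were kept under every alternative computed, and cd4-1 missed the threshold with a pseudocount of 0.1 (limma adjusted p = 0.08). The falls of cd74a, cd74b and zap70 missed it with that pseudocount too, and also without a filter. The falls of both cd74 genes were lost without mutant stage II replicate 1 (limma adjusted p = 0.12 for each) and without mutant stage I replicate 1 (adjusted p = 0.10 for cd74a and 0.12 for cd74b). The fall of zap70 was lost without mutant stage II replicate 2 (limma adjusted p = 0.16) and without either mutant stage I library (adjusted p = 0.073 and 0.12). The median of all tested genes was 0.32 higher at stage II than at stage I in mutants, and relative to it coro1a was higher by 0.46 and cd4-1 by 0.48, while arhgdig was at -2.22, cd74a at -1.31, cd74b at -1.14 and zap70 at -0.82.

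Within WT, arhgdig was the single gene of the set with a call: it was lower at stage II by -0.55 ± 0.11 (limma adjusted p = 0.0028). The log2 differences were -0.56 ± 0.30 for cd74a (limma adjusted p = 0.15), -0.45 ± 0.25 for cd74b (adjusted p = 0.16) and -0.32 ± 0.16 for zap70 (adjusted p = 0.13). They were -0.24 ± 0.17 for coro1a (limma adjusted p = 0.26), -0.05 ± 0.18 for cd4-1 (adjusted p = 0.83) and -0.01 ± 0.09 for rac2 (adjusted p = 0.97). So 1 of the 7 genes fell, where 22.2% of all tested genes were called lower and 38.1% higher at stage II in WT. For cd74a a call appeared without WT stage II replicate 2, at -0.95 (limma adjusted p = 0.034). Whether the stage changes of the 7 genes differ between mutant and WT was not tested, because that difference is built from the contrasts that chose the genes.

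**Figure D3:**
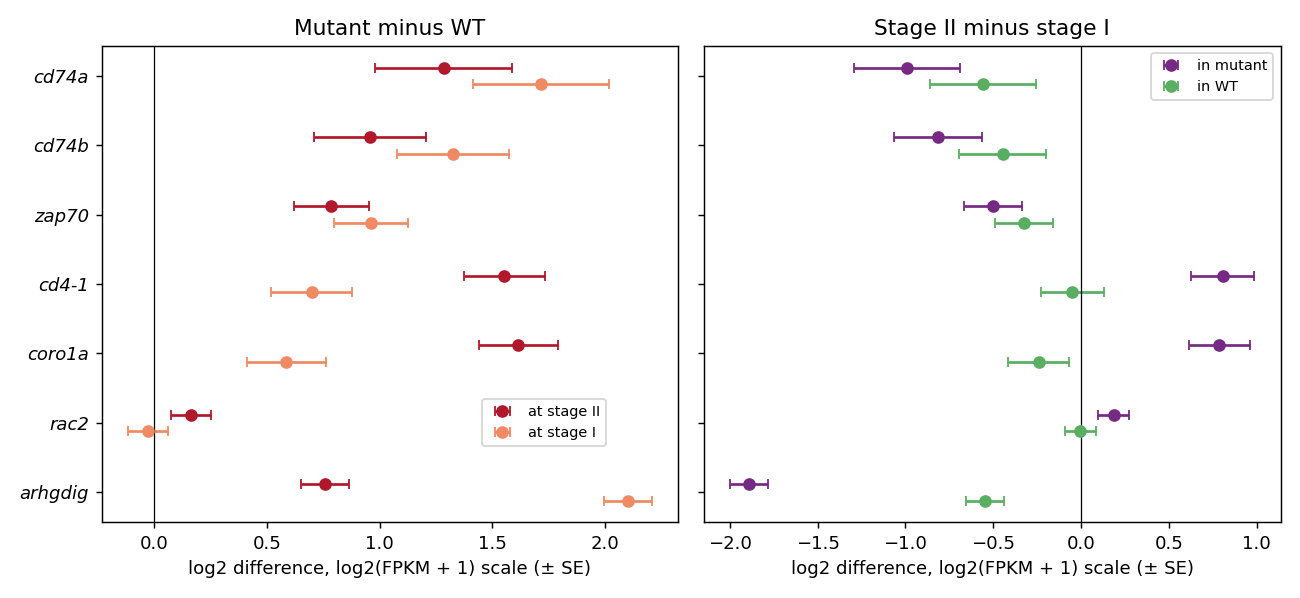
Log2 differences on the log2(FPKM + 1) scale with their standard errors from limma for the 7 genes, mutant minus WT at each stage on the left (chosen by these values, no test) and stage II minus stage I in each genotype on the right. On the right, coro1a and cd4-1 lie at 0.79 and 0.81 in mutants while cd74a, cd74b, zap70 and arhgdig lie below 0.

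Patterns over the 8 libraries were compared next. With log2(FPKM + 1) values centred on each gene's own mean, coro1a and cd4-1 differed by a root mean square of 0.13, the smallest value of the 21 pairs within the set. The pair cd74a and cd74b came next at 0.21, and arhgdig and rac2 were farthest apart at 1.03. The nearest patterns were sought among tested genes, leaving out those with clone-style names such as names starting with si: or zgc:. For coro1a they were bmp2k, a BMP2-inducible kinase gene, at 0.13, cd4-1 at 0.13 and C2CD4C at 0.14. For cd4-1 they were coro1a, the corepressor gene rcor2 at 0.16 and the semaphorin gene sema6dl at 0.18.

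For cd74a the nearest patterns were those of moto (0.21), cd74b and ms4a17a.7, of the MS4A family of membrane proteins (0.27). For cd74b they were scube1 (0.18), lypc (0.20) and cd74a. The pattern of zap70 was matched by the keratin gene krt99 (0.093), by cyp17a1, a steroidogenic enzyme gene of theca cells (0.12), and by apaf1, an adaptor of the apoptosome (0.13). The gene cyp17a1 itself was far more abundant than zap70, with 73.3 and 69.2 FPKM in mutant stage II libraries, against 34.0 and 34.9 FPKM in WT stage II libraries, and 96.2 and 105 FPKM in mutant stage I libraries, against 47.9 and 47.6 FPKM in WT stage I libraries. For arhgdig the nearest were ttc36 (0.16), the claudin gene cldn7b (0.17) and MANEAL (0.23). For rac2 they were ndor1 (0.052), the mitochondrial ribosomal gene mrpl39 (0.055) and paip1 (0.060), which like rac2 varied little. These likenesses describe 8 libraries in 4 groups and carry no test.

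The other leukocyte genes were counted next. Of 96 further list genes with a gene ID, 67 stayed under 1 FPKM in every library, 9 of them at 0 throughout, and 25 were tested. At stage II, 12 of the 25 were higher in mutants, 1 was lower and 12 did not pass, where 25.4% of all tested genes were called higher and 19.2% lower. At stage I, 14 of the 25 were higher, 3 were lower and 8 did not pass, where 18.4% of all tested genes were called higher and 26.9% lower. The gene called lower at stage II was ccl38.6, of the list of NK and innate lymphoid cells. It was lower at both stages, by -0.96 at stage II and -1.46 at stage I, and both calls were kept under every alternative computed. The median log2 difference of the 25 genes was 0.47 at stage II, beside 0.07 for all tested genes, and 0.72 at stage I, beside -0.08. The difference between mutant and WT itself differed between the stages for 12 of the 25 genes, where 36.4% of all tested genes were called in either direction. Several of the 12 passed the filter only through the group where they were highest, so nothing is read from this count. Of the 25 genes, 6 were under 1 FPKM in every WT library and 0 in every mutant library, so that these 6 entered the test through mutant values alone. Among all 13862 tested genes, 639 were under 1 FPKM in every WT library and 454 in every mutant library. Without the 6 list genes 10 of 19 were higher at stage II, beside 23.5% of all tested genes at 1 FPKM in some WT library, and 9 of 19 at stage I, beside 16.5%. At stage II 1 of the 19 was lower and at stage I 3 were, beside 20.0% and 28.1%. With no filter at all, 17 of 87 were higher at each stage, where 14.8% of all genes so tested were called higher at stage II and 11.6% at stage I. At each stage 4 of the 87 were lower, beside 10.6% at stage II and 14.5% at stage I. The median log2 difference of the 87 genes was 0.06 at stage II and 0.07 at stage I. The counts fell to 7 at stage II without mutant stage II replicate 2, and to 9 at stage I without either mutant stage I library. They fell to 4 at each stage when only genes averaging 5 FPKM or more were tested, a setting that leaves out lower list genes such as rag2 and lat.

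T cell genes made up 4 of the genes called higher at each stage. The gene rag2, a subunit of the recombinase that assembles antigen receptor genes, had 3.16 and 2.93 FPKM in mutant stage II libraries, against 1.06 and 1.28 FPKM in WT stage II libraries (log2 difference 0.90, limma adjusted p = 0.0025). Stage I oocytes had 2.94 and 3.08 FPKM in mutants, against 0.861 and 1.16 FPKM in WT (1.00, limma adjusted p = 0.0013). The T cell transcription factor gene tcf7 rose at both stages, by 0.93 (limma adjusted p = 0.0072) at stage II and by 1.55 (adjusted p = 0.00059) at stage I. The interleukin-7 receptor gene il7r rose at stage II, with 14.6 and 11.8 FPKM in mutants, against 3.38 and 5.49 FPKM in WT (1.41, limma adjusted p = 0.0041), and missed the call at stage I (0.58, adjusted p = 0.11). The adaptor gene lat, a substrate of ZAP70, had 2.11 and 2.37 FPKM in mutants at stage I, against 0.105 and 0.469 FPKM in WT (1.34). It passed the filter only through these mutant libraries, and without a filter its limma adjusted p was 0.0088. At stage II lat had 0.288 and 0.912 FPKM in mutants, against 0.0999 and 0.167 FPKM in WT (0.47, limma adjusted p = 0.12). Of 21 other T cell list genes with an ID, 15 stayed under 1 FPKM in every library and 6 were tested. Of the 6, 4 were called higher at each stage, lat among them at stage I. Beside them, 25.4% of all tested genes were called higher at stage II and 18.4% at stage I. The summed level below is that of all 21 genes. It was 28.5 and 27.3 FPKM in mutant stage II libraries, against 10.4 and 11.6 FPKM in WT stage II libraries. In mutant stage I libraries it was 26.4 and 22.5 FPKM, against 12.3 and 11.4 FPKM in WT stage I libraries. Of the stage II sums, il7r alone gave 14.6 and 11.8 FPKM in mutants, against 3.38 and 5.49 FPKM in WT.

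Myeloid genes went in several directions. Of 8 macrophage list genes tested, 5 were called higher in mutants at stage II, 4 at stage I, and 0 lower. At both stages grn1 and si:ch211-212k18.7 (cd68) were among them, but each lost a call on leaving out 1 library. Of 5 neutrophil list genes tested, 2 were higher and 0 lower at stage II, and 2 higher and 2 lower at stage I. The shares of all tested genes were 25.4% higher and 19.2% lower at stage II, and 18.4% and 26.9% at stage I. The granulin gene grn2 had 2.06 and 6.54 FPKM in mutants at stage II, while both WT libraries were listed at 0. It stayed under 1 FPKM in all stage I libraries, so it passed the filter only through the mutant stage II libraries. No fold or p is given for its difference at stage II. The cytokine gene il1b rose at stage II by 1.24 (limma adjusted p = 0.0029). The macrophage marker mfap4 rose at stage I, with 13.3 and 12.2 FPKM in mutants, against 2.77 and 4.22 FPKM in WT (1.63, limma adjusted p = 0.0012), and at stage II had 6.60 and 4.99 FPKM in mutants, against 5.82 and 9.15 FPKM in WT (-0.30, adjusted p = 0.34). The neutrophil protease gene mmp9 fell at stage I by -0.84 (limma adjusted p = 0.005), and npsn, a metalloprotease gene of zebrafish granulocytes, was lower there by -1.16. It needed the WT stage I libraries to pass the filter, and without a filter its limma adjusted p was 0.0024. At stage II both rose, mmp9 by 0.67 (limma adjusted p = 0.014) and npsn by 0.71 (adjusted p = 0.0089). The stage II call of mmp9 was lost without either mutant stage II library (limma adjusted p = 0.073 and 0.053) and without WT stage II replicate 1 (adjusted p = 0.073). That of npsn was lost without mutant stage II replicate 1 (limma adjusted p = 0.057) and without WT stage II replicate 2 (adjusted p = 0.053). The neutrophil list genes mmp13a and cpa5 were higher in mutants at stage I, by 1.54 and 1.42. Both needed the mutant stage I libraries to pass the filter. Without a filter their limma adjusted p was 0.05 and 0.013. The integrin adaptor gene fermt3b, which leukocytes and thrombocytes use, rose by 0.79 at stage II (limma adjusted p = 0.0045) and by 0.69 at stage I (adjusted p = 0.0075).

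**Figure D4:**
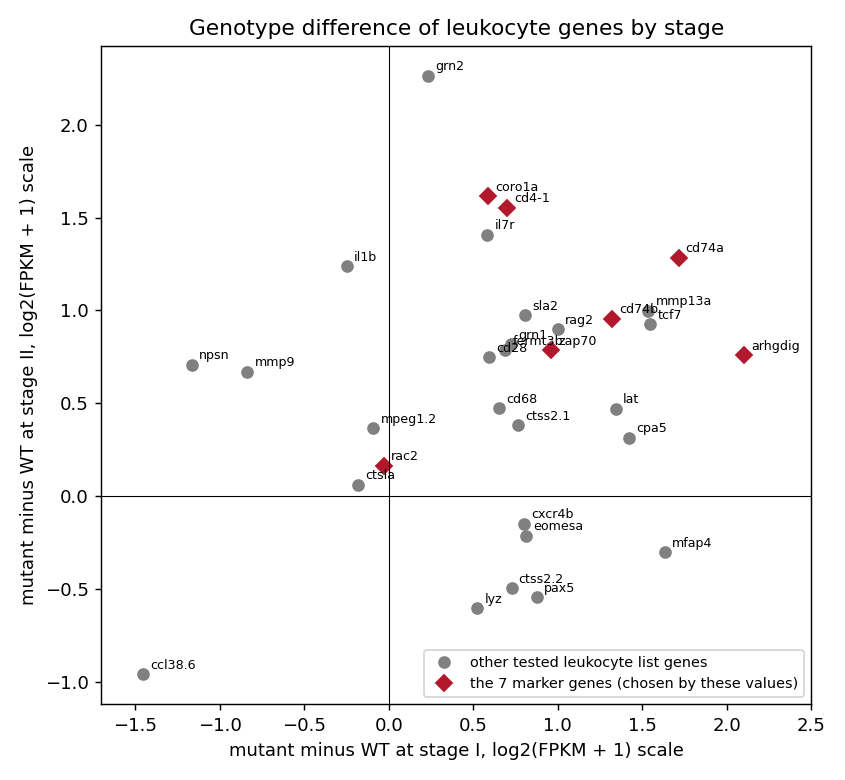
Mutant minus WT log2 differences at stage I (horizontal) and stage II (vertical) for the 7 marker genes (red, chosen by these values) and the other tested leukocyte list genes (grey), on the log2(FPKM + 1) scale. Most points lie right of and above 0, ccl38.6 lies below 0 on both axes, and npsn and mmp9 lie above 0 at stage II and below 0 at stage I; the point named cd68 is the gene the files call si:ch211-212k18.7.

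Of 9 other MHC class II list genes, 5 stayed under 1 FPKM in every library. The class II chain gene mhc2a had 0.662 and 1.36 FPKM in mutant stage II libraries, against 0.0869 and 0.0479 FPKM in WT stage II libraries, and 0.974 and 0.800 FPKM in mutant stage I libraries, against 0.778 and 0.709 FPKM in WT stage I libraries. It passed 1 FPKM in 1 library alone and was not tested, and neither was the class II gene mhc2dab, which also reached 1 FPKM in mutant stage II replicate 2 alone, at 1.07 FPKM. Among the tested list genes, ctss2.1, a cathepsin S gene whose product trims the invariant chain, was higher in mutants at both stages, by 0.38 (limma adjusted p = 0.0067) at stage II and by 0.77 (adjusted p = 0.00023) at stage I. It was at 934 FPKM or more in every library, and its stage II call was lost with median-ratio scaling (limma adjusted p = 0.13). For ctsla, a cathepsin L gene, no call was made (0.06, limma adjusted p = 0.53 at stage II and -0.18, adjusted p = 0.076 at stage I).

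Of 9 MHC class I genes tested, 5 rose and 1 fell in mutants at stage II, where 25.4% and 19.2% of all tested genes were called higher and lower. At stage I 2 rose and 3 fell, where the shares of all tested genes were 18.4% and 26.9%, close to those of the 9 genes. The peptide transporter gene tap1 fell at both, with 1.25 and 1.40 FPKM in mutant stage II libraries, against 5.38 and 5.32 FPKM in WT stage II libraries (-1.45, limma adjusted p = 0.00018), and by -1.75 at stage I (adjusted p = 6.4e-05). The tapasin gene tapbp.1 rose at stage II by 0.97 (limma adjusted p = 0.00027). The light chain gene b2m rose at stage II as well (1.91, limma adjusted p = 0.011), but its mutant values of 19.4 and 57.9 FPKM lay far apart, against 8.32 and 8.17 FPKM in WT.

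Of 6 other T cell receptor signalling genes tested, 3 were called higher and 1 lower in mutants at stage II, beside 25.4% and 19.2% of all tested genes, and 2 were called higher and 1 lower at stage I, beside 18.4% and 26.9%. The phosphatase gene ptpn22, an inhibitor of this pathway, rose by 0.54 (limma adjusted p = 0.014) at stage II and by 0.88 (adjusted p = 0.0014) at stage I. The stage II call was lost without mutant stage II replicate 2 (limma adjusted p = 0.078) and without either WT stage II library (adjusted p = 0.058 and 0.052). The adaptor gene lcp2a (SLP-76), another ZAP70 substrate, had 0.450 and 0.376 FPKM in mutants at stage II, against 2.57 and 2.25 FPKM in WT (-1.27). It passed the filter only through these WT libraries, and without a filter its limma adjusted p was 0.001.

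Around rac2, 7 other genes of the NADPH oxidase and of Rac activation were tested. At stage II 3 were called higher and 2 lower in mutants, beside 25.4% and 19.2% of all tested genes. At stage I 2 were called higher and 0 lower, beside 18.4% and 26.9%. Of those called higher at stage II, ncf1 passed the filter only through the mutant stage II libraries. Without a filter it missed the call (limma adjusted p = 0.065). The exchange factor gene tiam1a fell at stage II, with 0.831 and 0.923 FPKM in mutants, against 3.85 and 4.23 FPKM in WT (-1.42, limma adjusted p = 0.00054). The vav3b entry that was tested fell at stage II by -1.03 (limma adjusted p = 0.00075) and rose at stage I by 1.21 (adjusted p = 0.00031). Of the oxidase subunits, cyba was higher at both stages (1.21, limma adjusted p = 0.014 at stage II and 0.97, adjusted p = 0.034 at stage I), but both calls were lost on leaving out a library. At stage II this was mutant stage II replicate 2 (limma adjusted p = 0.069) or WT stage II replicate 1 (adjusted p = 0.082), and at stage I mutant stage I replicate 1 or WT stage I replicate 2 (adjusted p = 0.18 for each).

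Of the wider gene families of the set, the most abundant Rac gene is given first. The ubiquitous Rac gene rac1a had 317 and 307 FPKM in mutant stage II libraries, against 235 and 244 FPKM in WT stage II libraries (0.38, limma adjusted p = 0.0029). At stage I it had 279 and 281 FPKM in mutants, against 344 and 318 FPKM in WT (-0.24, limma adjusted p = 0.021), a call that was lost with median-ratio scaling (adjusted p = 0.10), without either mutant stage I library (adjusted p = 0.072 and 0.067) and without WT stage I replicate 1 (adjusted p = 0.10). The general RhoGDI gene arhgdia had 74.6 and 76.0 FPKM in mutant stage II libraries, against 82.7 and 89.0 FPKM in WT stage II libraries, and 44.3 and 49.3 FPKM in mutant stage I libraries, against 48.6 and 54.1 FPKM in WT stage I libraries. It was not called between genotypes (-0.19, limma adjusted p = 0.11 at stage II and -0.13, adjusted p = 0.25 at stage I), and between stages it rose at stage II where arhgdig fell, by 0.68 in mutants (adjusted p = 0.00027) and by 0.73 in WT (adjusted p = 0.00024).

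Among coronins, coro1ca was the most abundant, at 47.4 to 65.7 FPKM, and was not called between genotypes at either stage (0.15, limma adjusted p = 0.20 at stage II and -0.24, adjusted p = 0.057 at stage I). The gene coro2a had 5.69 and 5.96 FPKM in mutant stage II libraries, against 12.1 and 12.4 FPKM in WT stage II libraries (-0.96, limma adjusted p = 0.0028). At stage I it had 4.13 and 4.62 FPKM in mutants, against 2.08 and 1.35 FPKM in WT (1.00, limma adjusted p = 0.0021). At stage II coro6 fell by -1.35 (limma adjusted p = 0.0029), while coro1b was called higher in mutants, by 0.51.

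Lists of other cells were summed beside the set. Over 7 genes of early germ cells, summed FPKM was 60.7 and 57.0 in mutant stage II libraries, against 32.7 and 33.8 in WT stage II libraries, and 45.9 and 51.0 in mutant stage I libraries, against 15.3 and 16.2 in WT stage I libraries. Of the 4 that were tested, 3 were called higher at stage II and 4 at stage I, where 25.4% and 18.4% of all tested genes were. Among the 4, sycp2 passed the filter only through the mutant stage I libraries, and without a filter its limma adjusted p at stage I was 0.001. The synaptonemal complex gene sycp3 had 11.5 and 11.7 FPKM in mutant stage II libraries, against 1.59 and 0.511 FPKM in WT stage II libraries (2.67, limma adjusted p = 0.00016). Over 6 theca genes the sum was 79.0 and 79.6 FPKM in mutant stage II libraries, against 46.5 and 43.0 FPKM in WT stage II libraries, and 103 and 116 FPKM in mutant stage I libraries, against 54.6 and 55.8 FPKM in WT stage I libraries. The gene cyp17a1 carried this sum: the 5 others summed to 5.71 and 10.3 FPKM in mutant stage II libraries, against 12.6 and 8.16 FPKM in WT stage II libraries, and to 6.97 and 11.6 FPKM in mutant stage I libraries, against 6.61 and 8.16 FPKM in WT stage I libraries. Over 8 granulosa genes the sum was 3.80 and 5.53 FPKM in mutant stage II libraries, against 9.10 and 6.63 FPKM in WT stage II libraries, and 7.16 and 5.01 FPKM in mutant stage I libraries, against 8.83 and 5.87 FPKM in WT stage I libraries. Blood and muscle lists also differed at stage II. Over 11 erythrocyte genes the sum was 8.95 and 10.5 FPKM in mutant stage II libraries, against 4.87 and 4.11 FPKM in WT stage II libraries, and over 6 smooth muscle genes it was 4.92 and 6.81 FPKM in mutants, against 1.85 and 2.31 FPKM in WT. Over 6 thrombocyte genes it was 1.62 and 1.55 FPKM in mutant stage II libraries, against 4.15 and 4.49 FPKM in WT stage II libraries. At stage I the erythrocyte sum was 4.56 and 6.97 FPKM in mutants, against 5.08 and 4.76 FPKM in WT. The thrombocyte sum was 2.78 and 1.89 FPKM there, against 2.36 and 2.89 FPKM, so both overlapped. The smooth muscle sum was 3.95 and 3.78 FPKM, against 3.58 and 1.76 FPKM. The stroma sum was higher in mutants at stage I, at 12.7 and 11.5 FPKM, against 7.54 and 6.20 FPKM in WT. The liver sum was lower, at 4.95 and 3.67 FPKM, against 9.33 and 8.79 FPKM. Few genes were called in these lists. At stage I, 1 of 4 stroma genes tested was called higher (fn1a), and the 1 liver gene tested was called lower (rbp4). At that stage 18.4% of all tested genes were called higher and 26.9% lower. At stage II, 1 of 3 smooth muscle genes tested was called higher (cnn1b), beside 25.4% of all tested genes. The 91 other leukocyte genes averaging under 10 FPKM were summed too. In mutant stage II libraries their sum was 62.4 and 66.4 FPKM, against 30.2 and 38.3 FPKM in WT stage II libraries. In mutant stage I libraries it was 78.6 and 62.5 FPKM, against 36.6 and 37.6 FPKM in WT stage I libraries. The part of other cells in the values of the 7 genes was not tested.

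For each of the 7, the nearest tested gene on either side was read for the same contrasts. The order was that of protein-coding genes in the RefSeq gene table, which follows another assembly than the files. These neighbours lay 1 to 7 genes away, and those named were picked after their values were seen. Of the 14 neighbours, 5 were called higher and 5 lower in mutants at stage II, and 4 higher and 4 lower at stage I, where 25.4%, 19.2%, 18.4% and 26.9% of all tested genes were called. Near cd74a, slc35a4 was higher in mutants at stage I, with 28.6 and 25.1 FPKM in mutants, against 5.28 and 3.82 FPKM in WT (2.34, limma adjusted p = 0.00019). At stage II it had 21.0 and 29.2 FPKM in mutants, against 19.4 and 29.7 FPKM in WT (0.04, limma adjusted p = 0.90). Near coro1a, ppp1caa rose in mutants by 0.69 at each stage (limma adjusted p = 0.0052 at stage II and 0.0048 at stage I). On the other side of coro1a, paqr4a, at 1.79 FPKM or less, rose by 0.76 at stage II (limma adjusted p = 0.0046). At stage I paqr4a fell by -0.80 (limma adjusted p = 0.0031). Near cd4-1, usp5, 3 genes away, rose by 0.80 (limma adjusted p = 0.0006) at stage II and by 0.28 (adjusted p = 0.048) at stage I. On the other side of cd4-1 and 7 genes away, si:dkey-250k15.4 rose by 1.84 (limma adjusted p = 6.8e-05) and by 0.64 (adjusted p = 0.0088). Near rac2, fam83fa fell by -0.84 (limma adjusted p = 0.0041) at stage II and by -0.63 (adjusted p = 0.013) at stage I, and near cd74b clint1b fell by -0.44 (adjusted p = 0.043) and -0.92 (adjusted p = 0.0017). Beside zap70, mob3a was not called (0.15, limma adjusted p = 0.15 at stage II and 0.17, adjusted p = 0.12 at stage I).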

How the data were processed

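The values are FPKM, deposited by the authors as 1 merged table of 8 oocyte RNA-seq libraries. Per the submitters' processing notes, Trim Galore, STAR 2.5.3a, Cufflinks 2.2.1 and danRer11 were used; the annotation, the strand setting and the handling of reads shared by gene copies are not given in the sources used here. Of 32055 gene IDs, 103 with conflicting entries were left out (coro7 and plcg1 among the listed genes), and 24 exact duplicate entries were merged.

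The 13862 genes at 1 FPKM or more in 2 or more libraries were tested as log2(FPKM + 1) of the deposited values. A single limma 3.58.1 model (R 4.3.3) of the 4 group means, with a trended prior, had 4 residual degrees of freedom and 3.78 from the prior. Calls are Benjamini-Hochberg adjusted p under 0.05 over all tested genes. The fit was tested on simulated data. Patterns were compared by the root mean square difference of centred log2 values, and genes with clone-style names were left out of the nearest patterns.

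The 7 genes and the 25 lists (264 genes, 252 of them matched) were chosen with earlier results of these data known, and some lists share genes. Named genes are the 7, their 3 nearest patterns, family members, defining markers and the called list genes with the largest changes whose groups do not overlap; ctsla, mhc2a, mhc2dab, ctss2.2 and the gene neighbours fall outside it, being picked with their values in view. Gene names in the files were used, with a RefSeq table (GRCz12tu) for synonyms and gene order only. Alternatives were pseudocounts of 0.1 and 5, no filter or a mean of at least 5 FPKM, quantile and median-ratio scaling, no trend, a replicate block, each contrast's 4 libraries alone and each library left out. Keeping the conflicting IDs at their mean, leaving out list genes under 1 FPKM in every WT library, the theca sum without cyp17a1 and the leukocyte sum without genes averaging 10 FPKM or more were added after seeing the data.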

Additional observations from a re-analysis of the deposited data

Results flagged for a closer look

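For coro1a the stage difference ran in opposite directions in the genotypes. Its mean at stage II was 2.16 times that at stage I in mutants and 0.635 times in WT, with no overlap between the stages in either genotype. The WT difference did not pass the test (-0.24 ± 0.17, limma adjusted p = 0.26), and the WT values were under 1 FPKM. Whether these differ was not tested.

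For 12 other leukocyte list genes the mutant minus WT difference itself differed between the stages in limma, with p adjusted over all tested genes, where 36.4% of all tested genes were called in either direction. The difference at stage II exceeded that at stage I for grn2 by 2.03, npsn by 1.87, mmp9 by 1.51 (limma adjusted p = 0.0026) and il1b by 1.49 (adjusted p = 0.0078). It was smaller at stage II for mfap4 at -1.94 (limma adjusted p = 0.0042) and ctss2.2 at -1.22 (adjusted p = 0.047). Smaller values at stage II were also found for pax5 at -1.42, lyz at -1.13, cpa5 at -1.11 and cxcr4b at -0.95. The same held for eomesa at -1.03 (limma adjusted p = 0.00068) and ctss2.1 at -0.39 (adjusted p = 0.031), the last of which turned to 0.050 with quantile scaling. In each of these log2 values, on the log2(FPKM + 1) scale, 2 libraries per group stand behind every mean. The calls for ctss2.2 and ctss2.1 were each lost on leaving out 1 of several libraries, while those for mmp9, il1b, mfap4 and eomesa were kept without any 1 library. Of the 12, grn2, npsn, cpa5, pax5, cxcr4b and lyz had fewer than 2 libraries at 1 FPKM outside the group where they were highest. The filter therefore admitted them through that group, so no p is printed for them here and their calls are not read as tests.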

How the results depend on the processing

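Stage differences of the 7 genes kept direction and call in 218 of 239 recomputations, lost the call in 14, gained it in 2 and reversed in 5. The reversals were rac2 in mutants at -0.20 with quantile and -0.21 with median-ratio scaling, rac2 in WT at 0.0011 without WT stage II replicate 2 (lowest value on leaving out 1 library -0.011), and cd4-1 in WT at 0.081 without WT stage II replicate 1 and 0.025 without WT stage I replicate 2 (lowest -0.18). The mutant minus WT difference of rac2 at stage I reversed to 0.068 and 0.050 with the same scalings, and the interaction of ctss2.1 to 0.050 with quantile scaling. The cause was not tested. Of 241 recomputations of the mutant minus WT differences of the 7 genes, 34 moved by more than the gene's spread within groups. Over the settings other than leaving out a library, pseudocounts among them, cd4-1 at stage II (1.55) ran from 0.50 to 3.74. In the same settings cd74a at stage II (1.28) ran from 0.44 to 2.98. The calls lost with a pseudocount of 0.1 were cd74a, cd74b, zap70 and cd4-1 in mutants (limma adjusted p = 0.23, 0.079, 0.07 and 0.08), and without a filter, which tests more genes, the first 3 (adjusted p = 0.064, 0.059 and 0.056). With quantile scaling rac2 was called in WT at -0.27 (adjusted p = 0.031). Median-ratio scaling moved the median of all genes by -0.34 for the stage difference in mutants, -0.17 for that in WT and -0.10 for mutant minus WT at stage II, and quantile scaling by -0.26 in mutants and -0.13 in WT. The share of calls that were higher, 71.6% for the stage difference in mutants, was 56.2% and 48.4% with quantile and median-ratio scaling. With median-ratio scaling it was 50.0% instead of 63.2% in WT and 44.9% instead of 57.0% for mutant minus WT at stage II. Other leukocyte genes called higher numbered 4 at each stage with a mean of at least 5 FPKM, 10 and 9 at stages II and I without genes under 1 FPKM in every WT library, and 7 to 13 at stage II and 9 to 16 at stage I on leaving out 1 library. Genes called on leaving out 1 library numbered 4047 to 6269 (genotype, stage II), 4320 to 6141 (genotype, stage I), 7609 to 9183 (stage, mutants) and 6767 to 8138 (stage, WT). The count at stage II, 6180 with all libraries, was 4047 without mutant stage II replicate 1 and 4102 without replicate 2. Replicate numbers did not pair the libraries: deviations of same-numbered libraries had 6 correlations between -0.041 and 0.065. With a replicate block 13 and 14 other leukocyte genes were called higher at stages II and I, and no call of the 7 genes changed. Of 1645 recomputations of called list genes, 184 lost the call. With a mean of at least 5 FPKM only rac2 and arhgdig of the 7 genes were tested, and in the 4 libraries of a contrast alone cd74a, coro1a and cd4-1 in WT and cd4-1 at stage I fell under the filter. Where a library was left out, the lone library of its group was assumed to vary like the other groups. The depth behind low FPKM is unknown.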
